A study of Homo sapiens with 4 samples.

Results

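Replication-dependent histone genes supply the bulk of the H1, H2A, H2B, H3 and H4 proteins that package newly made DNA. They lie in clusters, are switched on in S phase under the cofactor NPAT, have short transcripts that mostly carry no intron, and end in a conserved stem-loop that is bound by SLBP in place of a poly(A) tail. Acetylation of histone H3 at lysine 27 (H3K27ac) marks active promoters and enhancers, and here it was read at the genes that encode histones themselves. The genes were chosen by name only, as GENCODE protein-coding genes on chromosomes 1 and 6 named H1-1 to H1-6 or H2AC, H2BC, H3C or H4C with a number. This gave 68 of 20033 protein-coding genes, namely 6 genes for the linker histone H1, 17 for H2A, 18 for H2B, 13 for H3 and 14 for H4.

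The cells were SK-N-BE(2)C, an established MYCN-amplified neuroblastoma line grown in medium with serum. Control cells (sgCtrl, 2 samples) received Cas9 with a non-targeting guide RNA and are labelled wildtype. Depleted cells (sgSNHG1, 2 samples) received Cas9 with a pair of guide RNAs against the long non-coding RNA gene SNHG1 and are labelled SNHG1 knockout. The paper describes transfection with a surrogate reporter, puromycin selection, sorting of single cells and expansion as clones for the depleted cells. It does not state whether the control clone went through the same steps. A difference between the groups and one between clones cannot be told apart. The control is described as 1 clone, and which of the SNHG1-depleted clones gave the ChIP-seq samples is not given in the sources used here. The authors pooled both replicates of a group before they called peaks, so that there was 1 list of peaks per group, no spread between replicates and no test, and every comparison below describes 2 lists.

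The sgCtrl list held 63699 peaks and the sgSNHG1 list 50119. Across SNHG1 itself (chromosome 11, 62851978 to 62855953) the sgCtrl list held 1 peak and the sgSNHG1 list 0, whereas with 1 kb on either side each list held 3, with a highest fold enrichment of 4.06 and 3.63. GATA3, HAND2, ISL1 and MYCN, which mark noradrenergic neuroblastoma cells, had a peak in both lists.

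In the GRCh38 genome 55 of the 68 histone genes lie on chromosome 6 and 13 on chromosome 1, in 5 clusters when genes less than 500 kb apart are joined. The largest holds 34 genes between 25723397 and 26285638 of chromosome 6, and 16 more lie between 27807479 and 27893891, with 5 between them from 27125897 to 27147562. On chromosome 1 there are 11 genes from 149782689 to 149887965 and the H2AC25 and H2BC26 pair from 228434777 to 228463104. Most of the H2A and H2B genes stand head to head. With start sites less than 1 kb apart there were 13 divergent pairs, of which 12 joined an H2A gene to an H2B gene and the other joined H3C7 to H2BC9. The 12 H2A and H2B pairs are separated by 193 to 250 bases.

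The shared promoters between 3 of these pairs are shown because the start sites of both genes bound them. The first pair had one of the larger differences in signal between the groups, the second an ordinary one, and the third, a pair known for expression in testis, had no peak in either list. Each runs 5′ to 3′ on the plus strand from the base after the first start site to the base before the second. Capitals mark TATAAA boxes, CCAAT boxes and the octamer ATTTGCAT on either strand.
H2BC13-H2AC13, chr6:27807930-27808172: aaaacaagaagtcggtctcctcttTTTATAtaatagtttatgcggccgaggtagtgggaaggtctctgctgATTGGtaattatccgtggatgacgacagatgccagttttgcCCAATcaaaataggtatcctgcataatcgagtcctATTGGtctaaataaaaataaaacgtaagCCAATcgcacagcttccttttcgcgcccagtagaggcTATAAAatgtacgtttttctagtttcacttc
H2BC11-H2AC11, chr6:27132796-27133042: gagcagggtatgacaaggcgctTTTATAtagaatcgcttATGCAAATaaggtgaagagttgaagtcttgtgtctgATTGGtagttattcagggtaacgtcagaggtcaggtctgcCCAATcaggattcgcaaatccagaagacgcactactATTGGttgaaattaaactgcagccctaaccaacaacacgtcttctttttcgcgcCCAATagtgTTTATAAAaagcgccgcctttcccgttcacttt
H2AC1-H2BC1, chr6:25726563-25726776: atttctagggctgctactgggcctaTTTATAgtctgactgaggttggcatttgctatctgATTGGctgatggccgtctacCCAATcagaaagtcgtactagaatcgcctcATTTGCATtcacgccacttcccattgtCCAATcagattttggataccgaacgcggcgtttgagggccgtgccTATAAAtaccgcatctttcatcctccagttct

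All 11 pairs whose shared promoter was read held at least 3 CCAAT boxes and at most 5, whereas TATAAA was present in 8 and the octamer in 8. The octamer is the site of OCT1, encoded by POU2F1, and is known from H2B promoters. H2AC1 and H2BC1 held the octamer, 3 CCAAT boxes and 2 TATAAA boxes although no peak lay within 140203 bases of the H2AC1 start site in the sgSNHG1 list. The octamer was absent from the pair H2BC13 and H2AC13.

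Promoters of 300 bases, from 250 before to 50 after the start, were matched by symbol in RefSeq (GRCh38) for 63 of the 68 genes. The others were H4C1, H4C3, H2AC12, H3C11 and H3C12. The motifs were searched on both strands, only the letters given here were matched, and none of the motifs contains another. TATAAA was found in 66.7% of the histone promoters and in 14.0% of all 27305 promoters. CCAAT, the site of the factor NF-Y, was found in 85.7% and 39.7%. It was in every H1, H2A, H2B and H3 promoter and in 3 of 12 H4 promoters. The octamer was found in 41.3% of the histone promoters and in 2.19% of all. It divided the families, with 11 of 16 H2A, 14 of 18 H2B and 1 of 11 H3 promoters holding it. No H1 or H4 promoter did. The promoters of a divergent H2A and H2B pair overlap, so 1 octamer can count for both genes. AAACACA, the H1 box, was in all 6 H1 promoters, in 3 others and in 6.94% of all promoters. The E2F sites TTTCCCGC and TTTGGCGC were in 1 histone promoter (1.59%) and in 2.75% of all. A match describes letters and says nothing of binding.

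**Figure D1:**
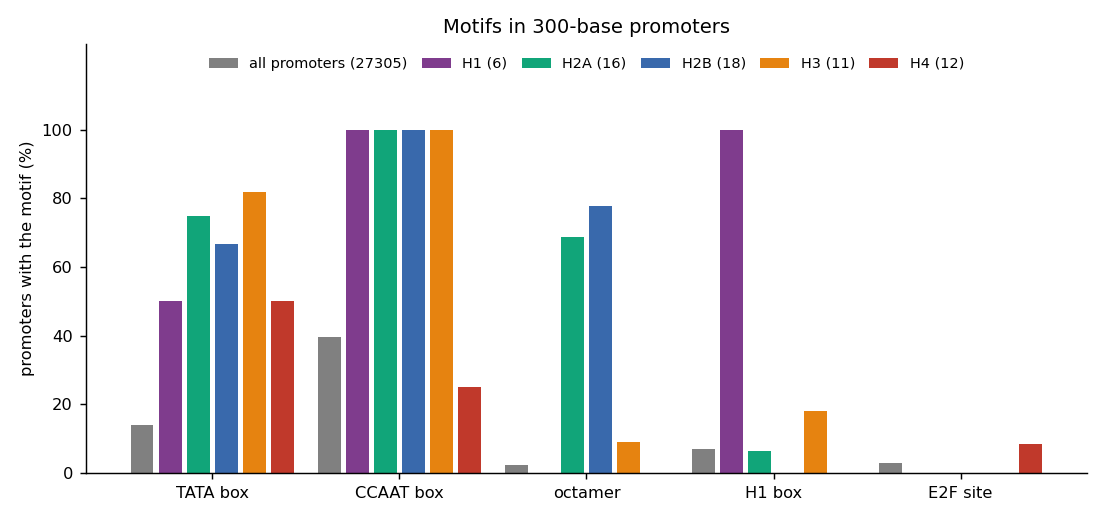
Percent of 300-base promoters (y axis) that held each motif (x axis), for each histone family and for all promoters, with the number of promoters in brackets. The CCAAT box reached 100% in 4 families and 25% in H4, the octamer was largely held by H2A and H2B, and the H1 box was in all 6 H1 promoters. Promoters of divergent H2A and H2B pairs overlap and can share a motif.

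The 3′ end separated the families in another way. A perfect stem of 6 base pairs that starts with GG, around a loop of 4 bases, was found within 150 bases after the stop codon in 66 of the 68 genes (97.1%) and in 85 of 19851 other protein-coding genes (0.428%). H2AC11 and H2AC15 had none. The examples below run along the coding strand, with the loop in capitals.
H3C1, chr6:26020932-26020947, plus strand: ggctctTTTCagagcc
H4C2, chr6:26026901-26026916, minus strand: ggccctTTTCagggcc
All 14 H4 genes had the stem of H4C2, whereas every H1, H2B and H3 gene and the 15 H2A genes with a stem-loop had that of H3C1. The loop varied little, and TTTC was the loop of 4 of 6 H1, 13 of 15 H2A, 12 of 18 H2B, 11 of 13 H3 and 9 of 14 H4 genes.

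In the sgCtrl list 54 of the 68 histone genes (79.4%) had a peak that overlapped the gene or 1 kb on either side, and in the sgSNHG1 list 56 (82.4%). The background over all protein-coding genes was 74.0% and 71.9%. Both lists held a peak at 53 of the genes. The 2 more genes in sgSNHG1 stand beside a lower share over all genes.

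Few genes differed in the presence of a peak. H3C3 had a peak in the sgCtrl list alone, against a background of 4.91% of genes, with a fold enrichment of 4.41 over 25 fragments. Fold enrichment is the ratio of the fragments over the summit of a peak, plus 1, to the local background that the peak caller estimated, plus 1. H4C3, H2BC9 and H4C12 had a peak in the sgSNHG1 list alone, against a background of 2.86%. Their fold enrichments were 3.86, 3.38 and 4.34, over 30, 48 and 98 fragments. The nearest sgCtrl peak lay 19401 bases from the start site of H4C3, 3374 from that of H4C12 and 1093 from that of H2BC9. These fold enrichments are near the low end of the histone genes.

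The 11 genes without a peak in either list fell into separate kinds. H4C14, H3C14, H3C15 and H4C15 lie in the duplicated part of the chromosome 1 cluster, and 98.2% to 100% of the stretches of 75 bases in their windows occur more than once in the genome. Reads of 75 bases, as sequenced here, have more than 1 place there, so the lists do not show whether these genes were acetylated. H2AC1, H2BC1 and H1-6 encode histones known from testis, and their windows were almost without repeated stretches. H1-1, H2BC3, H4C6 and H4C7 make up the rest, and the nearest sgCtrl peak lay 2772 bases from the start site of H1-1. Repeats also filled 50% or more of the windows of H2BC18, H3C13, H2AC18 and H2AC19, whose values are uncertain for this reason. The 54 genes with windows under 10% repeated had a peak in 45 cases in sgCtrl and 46 in sgSNHG1.

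The families differed in the height of the mark. The highest fold enrichment of a gene had a median of 6.80 in sgCtrl and 6.61 in sgSNHG1 over the histone genes with a peak, beside 6.22 and 6.64 over all genes. Each median is over the genes with a peak in its own list, and for H4 these were 8 in sgCtrl and 10 in sgSNHG1. In sgCtrl the family medians were 8.08 for H1, 7.13 for H2A, 7.30 for H2B, 5.63 for H3 and 4.91 for H4, and in sgSNHG1 they were 8.01, 7.61, 7.63, 5.62 and 4.72. The H3 and H4 genes were thus the low families in both lists. These are fold enrichments at 1 summit per gene, and 30 of the 54 genes in sgCtrl and 34 of the 56 in sgSNHG1 shared that peak with another histone gene. Because GENCODE gives 17 of the genes a span of over 1 kb through longer transcripts, up to 37610 bases for H2BC4, some summits lay far from the canonical start site, as at H2BC6 (at -11419 bases in sgCtrl) and H2BC26 (at 6189).

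Among the H1 genes H1-4 stood highest in sgCtrl with a fold enrichment of 9.11, and 7.92 in sgSNHG1. H1-5 was the lowest, with 5.34 and 5.19. Both encode common somatic linker histones, which bind the DNA between nucleosomes.

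H2AC18 had the highest fold enrichment of any histone gene in sgCtrl, 14.2, and 13.7 in sgSNHG1, in a window that was 90.3% repeated. The lowest in sgCtrl were the pair H2AC7 and H2BC7 with 2.93, and both had 3.45 in sgSNHG1, since 1 peak served both genes. In sgSNHG1 H2BC9 was lower still, with 3.38. H2BC18 led the H2B genes with 10.9 in sgCtrl and 11.4 in sgSNHG1, and H3C13 had the same peak and so led the H3 genes. H2A and H2B form the dimers at the outside of the nucleosome core.

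H3C11 was the lowest H3 gene in sgCtrl, with a fold enrichment of 3.99, and had 4.38 in sgSNHG1, where H3C4 was the lowest with 3.73. H4C9 led the H4 genes in sgCtrl with 7.05, and had 7.34 in sgSNHG1, where H4C4 stood above it with 8.15. H4C5 was the lowest of them with 2.98 and 3.52. H3 and H4 form the tetramer at the centre of the nucleosome. The range of H4, from 2.98 to 7.05 in sgCtrl, lay within the range of H2B, from 2.93 to 10.9.

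**Figure D2:**
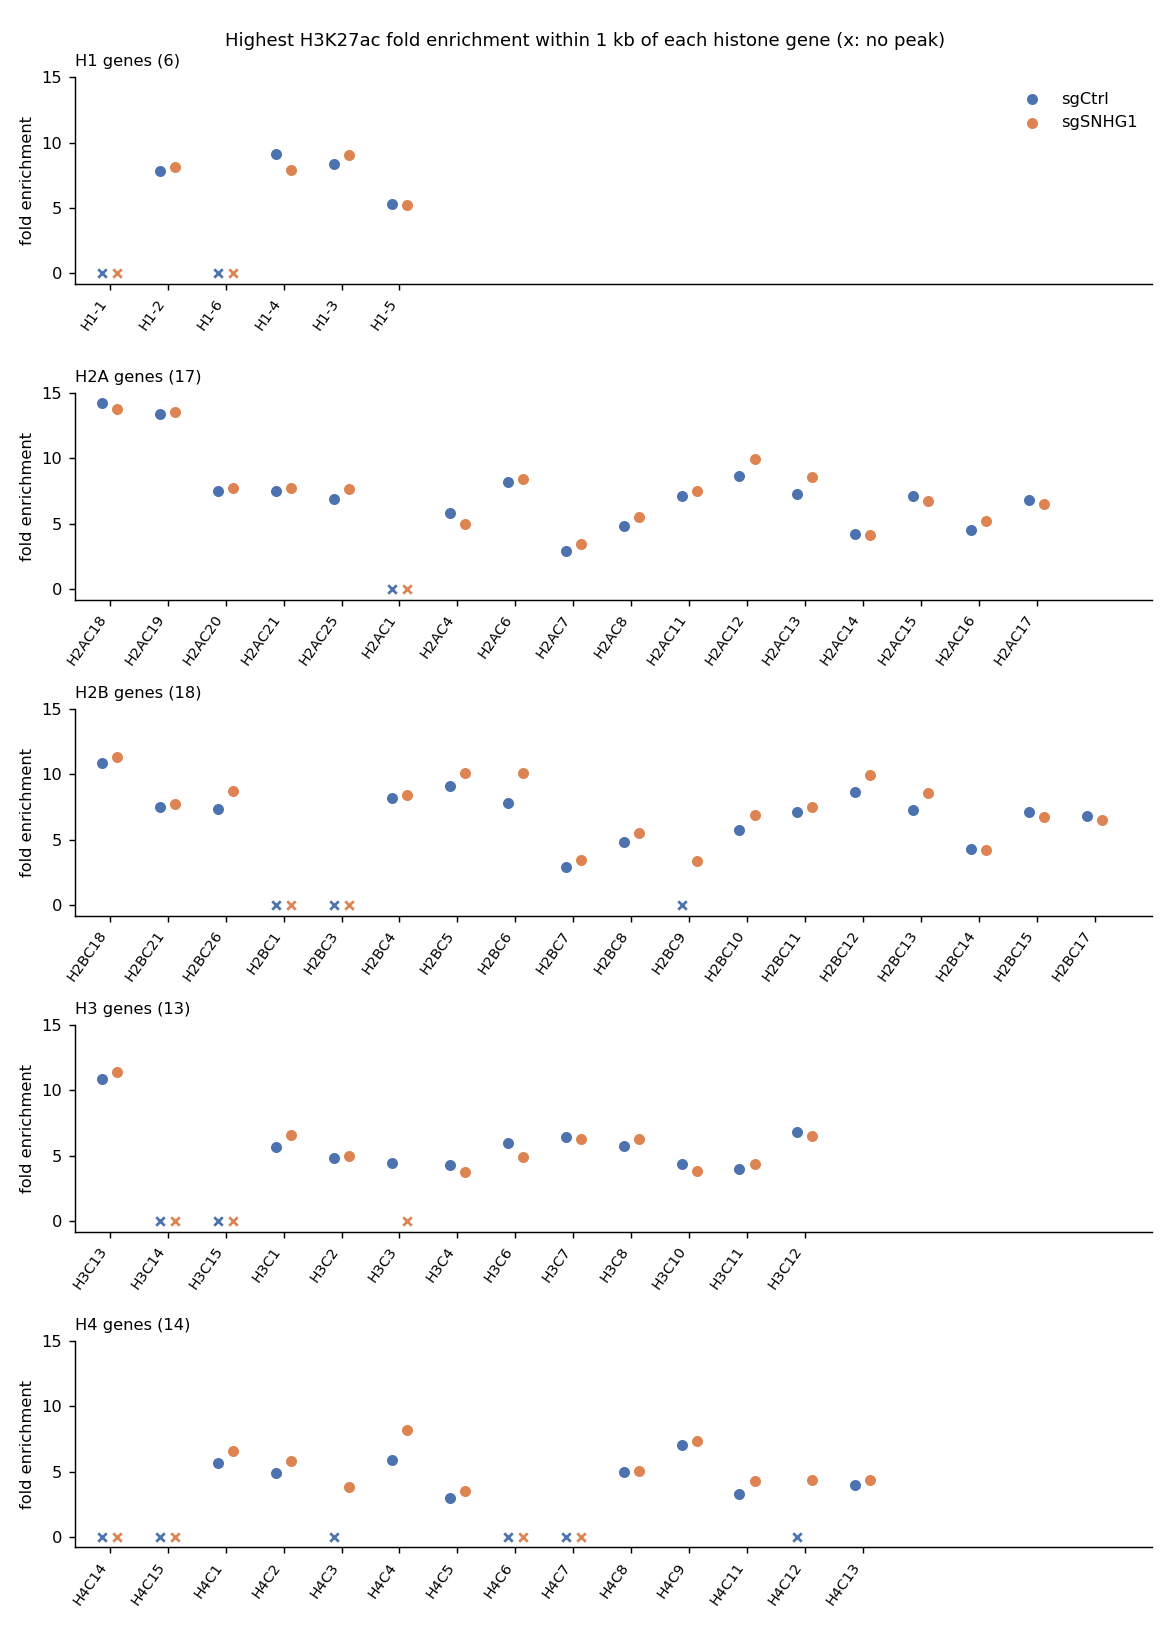
Highest fold enrichment (y axis, linear) of the peaks within 1 kb of each of the 68 genes (x axis, in genome order within a family, chromosome 1 first) in sgCtrl and sgSNHG1. Crosses at 0 mark genes with no peak, and the paired points lie close together, from 2.93 to 14.2 in sgCtrl.

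Between the groups fold enrichment hardly differed. Over the 53 histone genes with a peak in both lists the log2 ratio of sgSNHG1 to sgCtrl had a median of 0.06, beside 0.02 over 13831 genes. It was above 0 at 38 of the 53, against a background of 54.3% of genes. Relative to genes of the same decile of GC content around the summit it was above 0 at 25 of the 53, and the median excess over those genes was -0.044. No histone gene was 1.5 times higher in sgSNHG1, against a background of 2.23%, and none was 1.5 times lower, against 1.46%. Across the 53 genes the log2 values of the 2 lists were correlated with Pearson's r of 0.95 and Spearman's rho of 0.94, as a description across genes, many of which share a peak.

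The largest log2 ratios of fold enrichment were those of H4C4 at 0.47 (5.90 to 8.15), H4C11 at 0.40 (3.28 to 4.31), H2BC6 at 0.37 (7.82 to 10.1), H2BC10 at 0.27 (5.74 to 6.90) and H2BC26 at 0.25 (7.33 to 8.73). The lowest were those of H3C6 at -0.29 (5.95 to 4.86), H2AC4 at -0.21 (5.80 to 5.01), H1-4 at -0.20 (9.11 to 7.92), H3C4 at -0.19 (4.26 to 3.73) and H3C10 at -0.19 (4.33 to 3.80). For H2BC6 and H2BC26 the summit lay far from the canonical start site, at -11419 and 6189 bases in sgCtrl. All 8 H4 genes with a peak in both lists had a ratio above 0, against a background of 54.3% of genes. Their median log2 was 0.24, and the other family medians lay between 0.00 and 0.15. The values of H4C1 and H4C13 were those of the peaks of H3C1 and H3C11, which also enter the H3 median.

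The number of fragments behind these ratios was recovered from the fold enrichment and −log10 p of each peak and came out whole, within 0.001, for 99.6% of peaks in both lists. Dividing the fragments over the summit by the genome-wide background of the list (4.89 fragments in sgCtrl and 4.66 in sgSNHG1) gave the pileup over background, which does not use the local background. By this measure 52 of the 53 histone genes were higher in sgSNHG1, against a background of 60.0% of genes. H3C6 was the exception, with 37 fragments in sgCtrl and 33 in sgSNHG1.

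The median log2 ratio of pileup over background was 0.49, a ratio of 1.40, beside 0.10 and a ratio of 1.07 over all genes. At least 1.5 times higher were 14 of the 53 histone genes, against a background of 8.85%, and 0 were 1.5 times lower, against 6.43%. These counts are by gene, so genes that share a peak are counted more than once. For some genes the 2 lists gave different peaks. H2AC16, with a ratio of 1.80 (95% interval 1.32 to 2.48), set 66 fragments in sgCtrl against the 113 of the H1-5 peak in sgSNHG1. H1-5 itself had a ratio of 1.25 (0.94 to 1.66). At 40 of the 53 the exact 95% interval of the ratio lay above 1, against a background of 19.0%, and at 0 below it, against 9.64%. The intervals cover counting error only and not the spread between replicates. Counted by locus, with genes that share a peak or overlap taken once, 29 of 30 were higher.

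The median was above 0 in each family. The medians of the log2 ratio were 0.39 for H1, 0.48 for H2A, 0.49 for H2B, 0.37 for H3 and 0.68 for H4. H3C1 and H4C1 shared a peak of 52 fragments in sgCtrl and 133 in sgSNHG1, a ratio of 2.69 (95% interval 1.94 to 3.78), the largest of the histone genes. H4C2, the next gene along the cluster, had 50 and 98 fragments, a ratio of 2.06 (1.45 to 2.96). These genes, like H2BC13 and H2AC13 next, fell outside the rule for named genes and were chosen after their values were seen. H2BC13 and H2AC13, the first pair of the sequences above, had 84 and 159 fragments, a ratio of 1.99 (1.52 to 2.62).

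H2BC6, of the genes with the larger fold enrichment ratios, had 65 fragments in sgCtrl and 119 in sgSNHG1, a ratio of 1.92 (1.41 to 2.64). This is the peak far upstream of its canonical start site. H4C5 had 49 and 87, a ratio of 1.87 (1.30 to 2.70), and H4C4 had 68 and 112, a ratio of 1.73 (1.27 to 2.37). At the other end, H3C4 had 68 and 73 fragments (0.80 to 1.59) and H2AC4 had 62 and 67 (0.79 to 1.63). Both intervals include 1, as does that of H3C6 (0.57 to 1.54). H1-4, with a lower fold enrichment in sgSNHG1, had more fragments there, 176 beside 143, a ratio of 1.29 (1.03 to 1.62).

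The local background was also higher at these genes. Its log2 ratio had a median of 0.46 over the histone genes and 0.04 over all genes, and its median at the histone genes was 13.3 fragments in sgCtrl and 17.6 in sgSNHG1, beside 12.4 in both lists over all genes. Fold enrichment divides by this background, so a gene with a higher summit and a higher local background can show the same fold enrichment. Whether the peak caller took the local background from the ChIP fragments around a peak or from an input library is not given in the sources used here. The local background was higher in sgSNHG1 at all 53, against a background of 60.9% of genes.

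**Figure D3:**
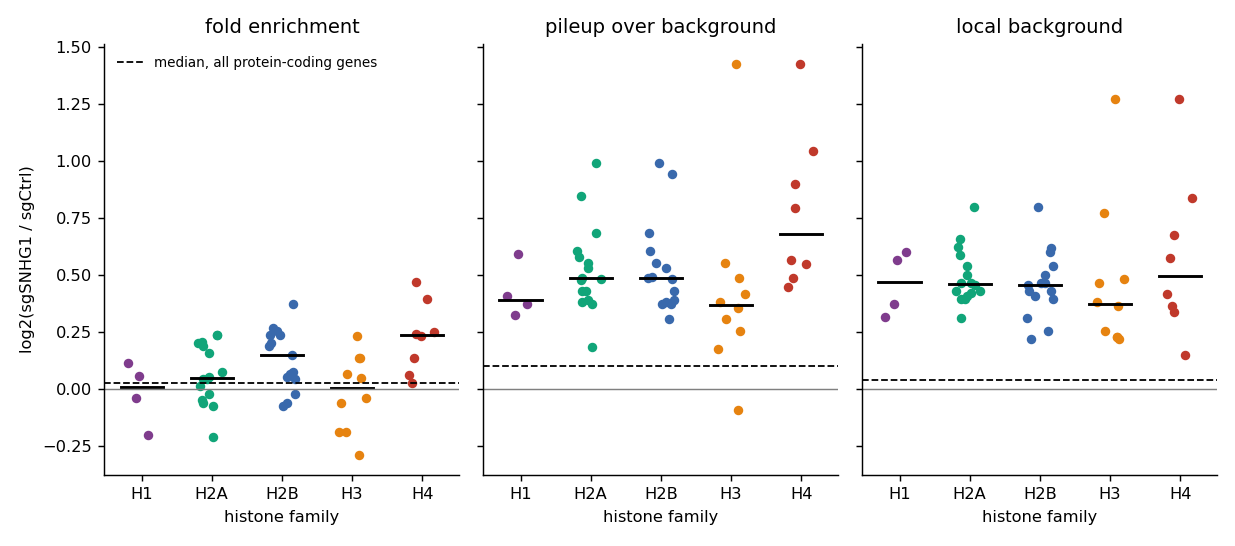
Log2 ratio of sgSNHG1 to sgCtrl (y axis) of 3 measures for the 53 histone genes with a peak in both lists, by family (x axis), with 1 point per gene, bars at the family medians and a dashed line at the median of all protein-coding genes. Fold enrichment lies about 0, with a median of 0.06, while pileup over background and local background lie above the dashed line at nearly every gene, with medians of 0.49 and 0.46.

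GC content moved with the pileup ratio. Over 500 bases around the sgCtrl summit the histone genes had a median GC content of 56.0%, beside 68.2% for all genes, and 39 of the 53 fell in the lowest decile of genes by GC content, from 39.2% to 58.2%. Among other genes the median log2 ratio of pileup was 0.32 in that decile and 0.02 in the highest. The 39 histone genes in the lowest decile had a median of 0.49, and the 12 in the next had 0.45 beside 0.17 for other genes there. Relative to all genes of their own decile the histone genes were higher by a median of 0.19 on the log2 scale in place of 0.39 relative to all genes. The histone genes were then higher at 49 of 53. What set the relation with GC content was not tested.

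**Figure D4:**
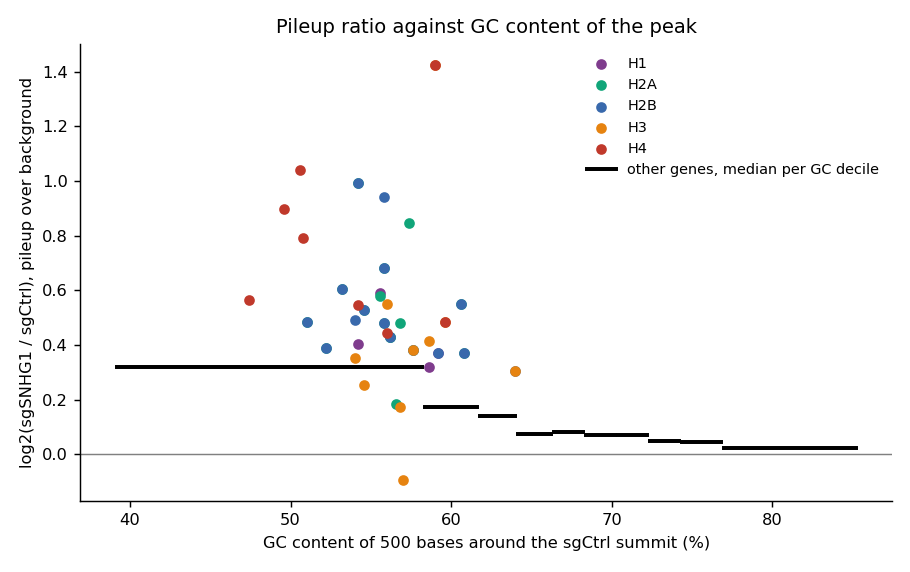
Log2 ratio of pileup over background (y axis) against the GC content around the sgCtrl summit (x axis, percent) for the 53 histone genes, coloured by family, where genes that share a peak lie on 1 point. Black bars give the median of other genes in each decile of GC content, which falls from 0.32 to 0.02, and most histone genes lie above the bar over their GC content.

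The position of the genes was compared next. The median log2 ratio of pileup was 0.49 for the 44 histone genes on chromosome 6 and 0.43 for the 9 on chromosome 1, beside 0.17 and 0.10 for the other genes of these chromosomes. By cluster it ranged from 0.39 to 0.55. Of 10 other protein-coding genes inside the clusters 3 had a peak in both lists. The log2 ratio was 0.13 at TRIM38 and 0.46 at BOLA1. ENSG00000282988 had 0.32, but its fold enrichments of 4.26 and 3.73 were those of H3C4. Its 0.32 set the H3C4 peak in sgCtrl (68 fragments) against the H2AC7 peak in sgSNHG1 (81 fragments). H3C4 itself had 0.17. The value of ENSG00000282988 is thus not separate from the histone genes.

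The peaks themselves were largely the same in both lists. The windows of the histone genes held 62 peaks in sgCtrl, of which 59 (95.2%) overlapped an sgSNHG1 peak, and 67 in sgSNHG1, of which 58 (86.6%) overlapped an sgCtrl peak. Over the full lists, which are not limited to windows of genes, these shares were 61.5% and 79.2%. The median fold enrichment of the full lists was also lower, 3.75 and 3.89 beside 4.98 and 5.01. Counted by gene, 53 of the 54 histone genes with an sgCtrl peak also had one in sgSNHG1, beside 13831 of 14815 of all genes. The peaks of the histone genes covered 32407 bases in sgCtrl and 38060 in sgSNHG1, whereas all peaks covered 32482428 and 24937104. A peak at a histone gene had a median length of 473 and 495 bases, and a median of 65.5 and 88 fragments over its summit, beside 55 and 52 for all peaks.

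Around the start site the peaks of the histone genes left a gap. In sgCtrl, 66.2% of the 68 genes were covered by a peak 300 bases downstream of the canonical start site and 41.2% at 640 bases upstream, but 0 at the start site itself and at 200 bases upstream. In sgSNHG1 these shares were 73.5%, 47.1%, 2.94% and 1.47%. Over all genes the sgCtrl shares were 49.6% at 300 bases downstream, 11.5% at 640 upstream, 14.2% at the start site and 11.9% at 200 upstream. The highest summit of a gene lay at a median of 292 bases downstream of the start site in sgCtrl and 304.5 in sgSNHG1, and within 1 kb of it in 48 of 54 and 48 of 56 genes.

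**Figure D5:**
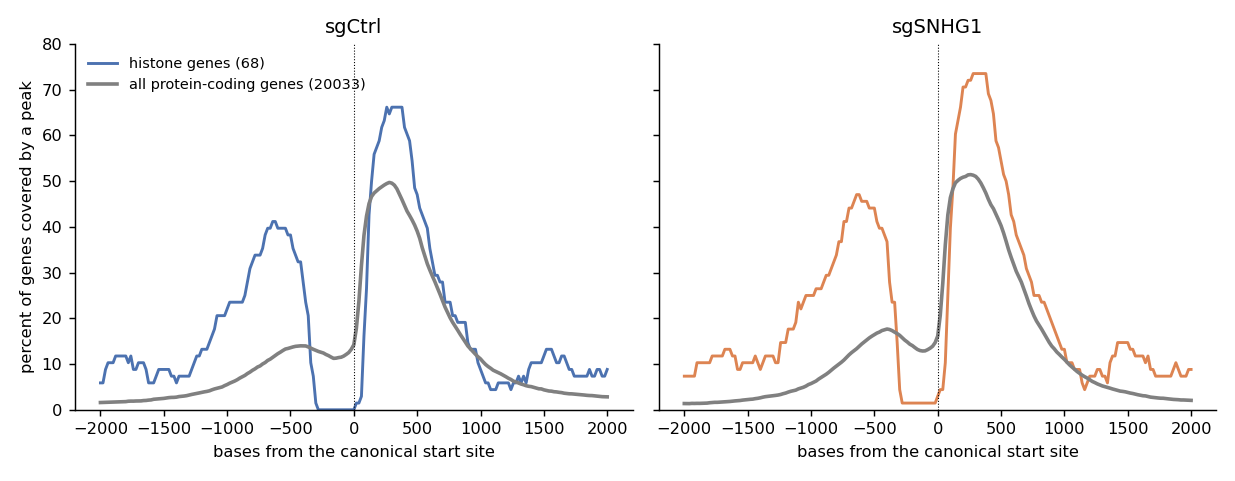
Percent of genes covered by a peak (y axis) at each distance from the canonical start site (x axis, bases, downstream to the right) in sgCtrl and sgSNHG1. The histone genes peak near 300 bases downstream, at 66.2% and 73.5%, with another maximum of 41.2% and 47.1% at 640 bases upstream and a gap between them.

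The upstream maximum is where the partner of a divergent pair lies. In none of the 12 pairs with a peak at either gene did a peak of either list reach into the bases between the start sites. The pair H2AC1 and H2BC1, with no peak nearby, is not counted here, whereas H3C7 and H2BC9, with 978 bases between them, are. Of the 10 pairs whose genes shared the highest peak in sgCtrl, all did so in sgSNHG1, since the windows of both genes reach to the same flanking peaks. Such gaps were common at other pairs, which were matched to the distances of the H2A and H2B pairs only. Of 102 other divergent pairs with 193 to 250 bases between the start sites and a peak at either gene, 97 (95.1%) had no sgCtrl peak between, and in sgSNHG1 it was 98 of 103 (95.1%). In the 12 pairs with a peak in both lists the pileup over background of the first gene was higher in sgSNHG1 in every pair, from a ratio of 1.29 for H2AC15 to 1.99 for H2BC13. These genes are among the 52 of 53 counted above, against a background of 60.0% of genes. The intervals of H3C7 (0.96 to 1.86) and H2AC14 (0.91 to 1.89) include 1.

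The genes that act on histone genes were read in the same way, from lists set with earlier results of these data known. All 16 genes for factors of histone gene transcription had a peak in both lists, with a median log2 ratio of 0.00 for fold enrichment and 0.23 for pileup. NFYC, a subunit of NF-Y, had the highest fold enrichment, 21.5 in sgCtrl and 19.5 in sgSNHG1. CASP8AP2, which encodes the histone locus protein FLASH, had the largest ratio, with 3.95 and 5.89, and CCNE1, which encodes cyclin E1, the lowest, with 9.35 and 8.05. NPAT itself had 7.12 and 7.10.

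Of 19 genes for the processing of histone pre-mRNA 18 had a peak in both lists, and CSTF2 had none. Their median log2 ratios were 0.04 for fold enrichment and 0.24 for pileup. SNRPF, a core protein of small nuclear ribonucleoproteins, had 5.77 in sgCtrl and 9.97 in sgSNHG1, and FIP1L1, a polyadenylation factor, had 17.5 and 10.4. SLBP, which binds the stem-loop, had 8.72 and 7.98.

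The 14 genes for histone chaperones, which carry histones to and from DNA, all had peaks in both lists, with median log2 ratios of 0.04 and 0.21. NAP1L1 was the highest in sgCtrl with a fold enrichment of 16.9, and 18.9 in sgSNHG1. ATRX had 7.13 and 11.7, and its partner DAXX had 4.96 and 3.79. Of 23 genes for variant or replication-independent histones 14 had a peak in both lists, with medians of 0.01 and 0.05. This list also holds H4C16, which lies on chromosome 12 and encodes the same H4 protein as the clustered genes, with a log2 pileup ratio of 0.75, and without it, a choice made after seeing the data, the medians were 0.01 and 0.03. Among them MACROH2A1 had 14.3 and 13.7, H2AZ1 had 4.70 and 7.26, and H1-7 had 4.92 and 3.53. The median log2 pileup ratio of each list lay below that of the replication-dependent genes, 0.49. The summits of the lists had a higher median GC content, 71%, 64.4%, 68.6% and 70.4% in the order given, beside 56%. Relative to all genes of the same decile of GC content the medians were 0.12, 0.10, 0.15 and -0.02, beside 0.19.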

How the data were processed

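H3K27ac ChIP-seq of 4 samples, 2 per group, was used. The authors trimmed reads with cutadapt, aligned them to GRCh38 with BWA, and ran MACS2 on both replicates of a group together. In the deposited peak lists the fold enrichment is a ratio to the local background, and the −log10 of the p-value was also read. How deeply each sample was sequenced is unknown from these lists.

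The members and gene lists were chosen with earlier results of these data known. Genes came from GENCODE release 44. Each took the highest value among peaks that overlapped it or 1 kb on either side by at least 1 base. Pileups were recovered assuming a pseudocount of 1 and a Poisson p-value, which was tested on simulated data, and the background was the most common local background of the list. Genes were named as the highest and lowest of a family, the 5 largest differences either way, those with a peak in 1 list or none, those whose sequence is shown, and at most 3 per gene list. NPAT, SLBP, H2AC16, ENSG00000282988 and the largest pileup ratios were added after their values were seen. A ratio of 1.5 set the counts. Computations ran in Python 3.11.15 (numpy 2.4.6, pandas 2.3.3, scipy 1.17.1). Alternatives changed the threshold, list size, window, measure, repeats and unit. One marker gene is not reported here.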

Additional observations from a re-analysis of the deposited data

How the results depend on the processing

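No paired analysis was possible because each list joins both replicates of its group, and for the same reason no replicate could be left out. Of 100 recomputed values 70 stayed close to the reported one, 23 moved and 7 changed sign. With windows of 5 kb the share of histone genes with a peak was 92.7% in sgCtrl and 94.1% in sgSNHG1, and counted by distinct loci 2 had a peak in 1 list only. With pileup over background in place of fold enrichment the median log2 ratio was 0.49, its excess over all genes 0.39, and 14 genes were at least 1.5 times higher. With covered bases these values were 0.22, 0.31 and 8. Relative to genes of the same decile of GC content, an alternative chosen after seeing the data, the excess was -0.044 for fold enrichment and 0.19 for pileup. By pileup the log2 ratio changed sign at H1-4 (0.37), H1-5 (0.32), H2AC18 (0.48), H2AC4 (0.18), H3C10 (0.55) and H3C4 (0.17). By construction, pileup is not divided by the local background. A stricter threshold, lists of equal size, windows at the start site and windows under 10% repeated kept the direction of every median.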
